A study of Homo sapiens with 12 samples.

Results

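The mitochondrial ribosomal protein genes were described here as the genes whose name begins with MRPL or MRPS followed by a digit, the names given to proteins of the large and the small subunit. They were 81 of 16417 gene names in the authors' deposited tables. Of these, 77 were protein-coding, 48 with MRPL and 29 with MRPS names, and the other 4 were the antisense RNA MRPL23-AS1 and the pseudogenes MRPL42P5, MRPL45P2 and MRPS31P5. A RefSeq gene table matched 80 names by symbol and MRPS36 by an older name. The name is not the role in every case: MRPS36 is now listed as KGD4, a subunit of the 2-oxoglutarate dehydrogenase complex, and MRPS30 and MRPS18A sit in the large subunit of the assembled human ribosome.

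The mitochondrial ribosome translates the few proteins that the mitochondrial genome encodes, all of them subunits of the respiratory chain and ATP synthase. Its RNA is made in the mitochondrion, while its proteins are encoded in the nucleus, translated in the cytoplasm and imported. The messenger RNAs described here are therefore nuclear transcripts, which can carry N6-methyladenosine (m6A), a modification placed mostly by the METTL3 and METTL14 complex, often near stop codons and in 3′ untranslated regions. METTL16 is a separate m6A methyltransferase known for sites in U6 small nuclear RNA and in MAT2A messenger RNA.

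NOMO-1, a human acute myeloid leukaemia line, carried the METTL16 knockout guide sgMETTL16-1, the knockout guide sgMETTL16-2 or the control guide sgNS, each delivered by lentivirus and followed by puromycin selection, with no clone named. Each of the 3 guides had 2 libraries of poly(A) RNA pulled down with an m6A antibody (IP) and 2 of the RNA put into it (input), which makes 12. The results came from 4 tables of the authors' own comparisons, 1 for each knockout guide and replicate number, which list windows of transcripts. The series asks what METTL16 methylates. The tables give no RNA levels, so neither the knockout nor the labelled cell type could be checked here, and the depth of each library is unknown. They do not state the direction of the log2 fold change, and a negative value was read, by the usual convention, as less m6A in knockout than in sgNS cells; the opposite convention would turn every direction below. The tables of 1 replicate number may share their sgNS libraries, which the sources used here do not give, and nothing in the labels says that the replicate numbers were separate cultures.

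For 4 genes with an enriched window that reached the annotated start, the first 30 transcribed bases are shown, the stretch of such windows that the sequence tables used here hold. They come from RefSeq (GRCh38.p14), 5′ to 3′ on the gene's strand, with the core m6A motif GGAC in capitals where present. MRPL37 is shown for a window called higher in knockout, MRPL54 for a start inside an enriched window in all 4 tables, and MRPL17 and MRPL11 for a start inside an enriched window in 1 table.
MRPL37, chr1:54200167-54200196, plus strand: ctcattcgttcccagcaggccctgcgcgcg
MRPL54, chr19:3762682-3762711, plus strand: aagctgcccgcaatacgtcatggcgaccaa
MRPL17, chr11:6683311-6683340, minus strand: agtttccagttccggcctccaaggggcggg
MRPL11, chr11:66438819-66438848, minus strand: gtgaGGACccttgacctctggcccaagatg
GGAC began at base 5 of MRPL11 and was absent from the first 50 bases of the other 3. Over all annotated starts in the same RefSeq table, the 4 letters GGAC, searched on the gene's strand alone, stood in the first 50 bases of 14 of 85 starts of 69 mitochondrial ribosomal protein genes (16.5%), against 6632 of 35116 starts of all genes (18.9%). TACAGAGAA, the letters of the METTL16 site of U6 RNA, stood in 0 of these 85 starts and in 11 of all 35116 (0.0313%).

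Transcripts of mitochondrial ribosomal proteins were commonly enriched for m6A. A window counted as enriched when the authors' deposited false discovery rate (FDR) of IP over input was under 0.05. By the authors' deposited tables, 57 of the 81 listed genes had an enriched window in sgMETTL16-1 replicate 1 (70.4%), where the background over all genes was 30.4%. In sgMETTL16-1 replicate 2, the deposited table gave 41 of 79 genes (51.9%), against 35.9% of all genes. In sgMETTL16-2 replicate 1, the deposited table gave 55 of 81 genes (67.9%), against 34.5%, and in sgMETTL16-2 replicate 2 it gave 45 of 77 genes (58.4%), against 35.8%. The share was above that of all genes in each of the 4 tables, and the difference was not tested. It was not particular to these genes. Cytoplasmic ribosomal protein genes had higher shares in each table, 74%, 65.7%, 79.2% and 63.8%. Genes of respiratory complex I subunits, named NDUF, had lower ones, 53.1%, 33.3%, 53.1% and 39.5%.

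Counted by window, the authors' deposited tables listed 227, 211, 235 and 193 windows of these genes in sgMETTL16-1 replicates 1 and 2 and sgMETTL16-2 replicates 1 and 2, of 79372, 71406, 75788 and 70002 windows in all. Enriched windows were 62, 47, 61 and 48 of them in the deposited tables (27.3%, 22.3%, 26% and 24.9%), against 8.1%, 11.9%, 10.2% and 12.3% of all windows. Window length moved with this share. The median window of these genes spanned 205, 149, 179 and 150 exonic bases in the deposited tables, against 121 for all windows in each, and the part of length in the share was not tested. Among enriched windows, the authors' deposited tables gave a median fold enrichment of 1.68, 1.79, 1.80 and 1.82 for these genes, against 1.78, 1.92, 1.88 and 1.89 for all genes. More of these genes therefore had an enriched window, while the enrichment within it was slightly below that of other enriched windows in each table.

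An enriched window was found in all 4 tables for 35 genes, 22 with MRPL and 13 with MRPS names, in 1 to 3 tables for 30 genes, and in no table for 16. The 16 were the 4 noncoding members and 12 coding genes: MRPL1, MRPL3, MRPL18, MRPL19, MRPL23, MRPL30, MRPL39, MRPL42, MRPL50, MRPS18C, MRPS35 and MRPS36. MRPL58, a peptidyl-tRNA hydrolase built into the large subunit, was the only 1 of 77 RefSeq coding genes that had no row under this name; the tables carry it under its older name ICT1.

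For the 35 genes, the enriched window with the lowest IP FDR was taken in each table, and genes were ranked by the geometric mean of its fold enrichment over the 4 tables. The windows taken need not be the same across tables. MRPS18A came first at 2.70 in the authors' deposited tables, with 1.64 and 2.96 for sgMETTL16-1 and 6.08 and 1.81 for sgMETTL16-2. Its lead rested on the 1 table of sgMETTL16-2 replicate 1. MRPL17, a protein near the polypeptide tunnel exit, followed at 2.51 in the authors' deposited tables, with values of 1.80, 2.96, 2.45 and 3.03. MRPL27, the counterpart of a bacterial protein at the peptidyl transferase centre, came next, with 1 window throughout. Its fold enrichment was 2.12, 2.49, 2.60 and 2.57 in the authors' deposited tables, all for the same window at chr17:50367867-50368247, which ended at the 3′ end of the gene.

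MRPS27, a pentatricopeptide repeat protein, had 2.13, 2.28, 2.73 and 2.64 in the authors' deposited tables. MRPL10, a protein of the stalk base, had 2.13, 2.82, 2.56 and 2.06 in the deposited tables. MRPL35 had 2.60, 2.11, 2.68 and 2.07 there, and MRPL32, a subunit matured by a mitochondrial protease, had 2.23, 2.39, 2.03 and 2.20. These 4 stayed above 2 in every table. The remaining 3 of the first 10 had a value of 2.00 or less in at least 1 table: the authors' deposited tables gave 1.59, 3.38, 1.88 and 2.48 for MRPS9, 1.66, 2.75, 3.04 and 1.69 for MRPL11, and 2.00, 2.08, 2.41 and 2.23 for MRPL54. The lowest of the 35 were MRPS5, with a geometric mean of 1.36, and MRPL2, with 1.47, in the authors' deposited tables. Both are counterparts of bacterial core proteins, and both return below among the windows called higher in knockout.

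**Figure D1:**
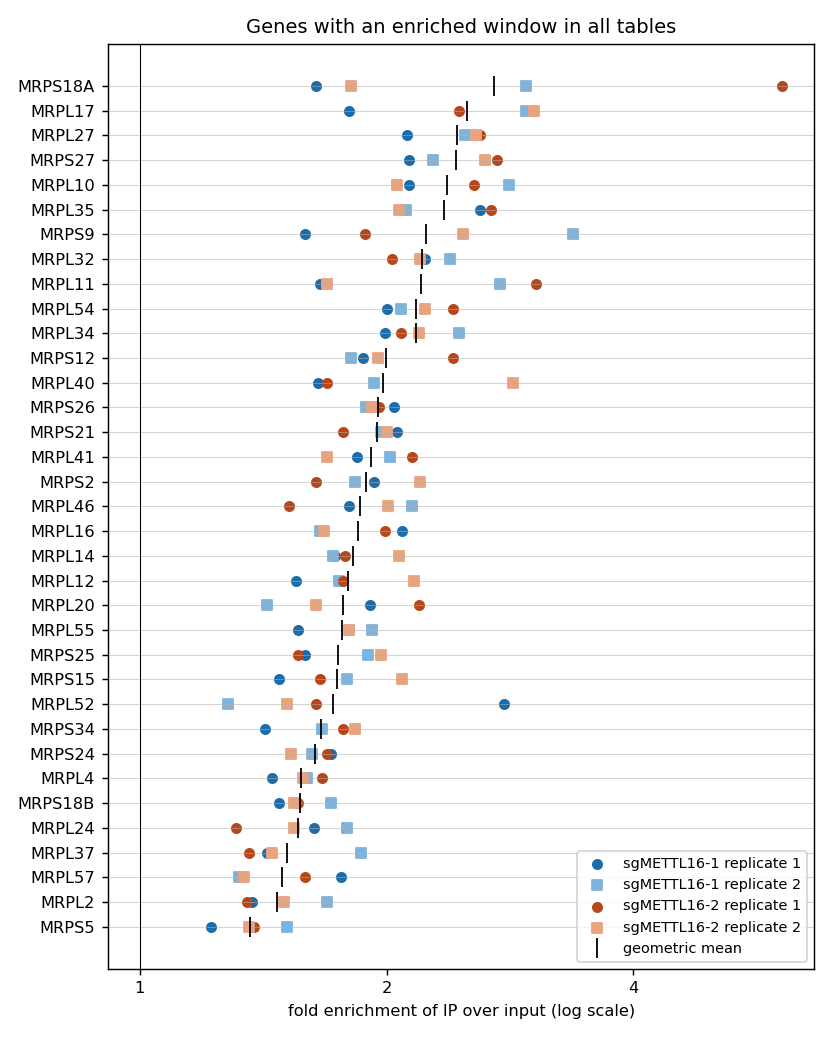
Fold enrichment of IP over input of the enriched window with the lowest IP FDR, for each gene enriched in all 4 tables, 1 symbol per table and a bar for the geometric mean. MRPS18A, with values between 1.64 and 6.08, leads the order and MRPS5, between 1.22 and 1.51, ends it.

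Most of the enriched windows lay near the 3′ ends of the genes. Within 1000 genomic bases of the annotated 3′ end were 43 of 62, 35 of 47, 40 of 61 and 36 of 48 enriched windows of the coding genes (69.4%, 74.5%, 65.6% and 75%), against 34.6%, 30.6%, 32.4% and 30.3% of enriched windows of all coding genes. Windows of the same genes that were not enriched lay there in 42.5%, 37.8%, 41.1% and 37.9% of cases, against 23.9%, 22.1%, 23.9% and 22.6% for all coding genes. In the replicate 1 tables, MRPL names had 75% of enriched against 36.5% of other windows there, and 72.2% against 33.9%. MRPS names had 61.5% against 52.6% and 56% against 56.9%. In the replicate 2 tables the MRPS shares were 73.3% against 39.3% and 64.7% against 39.6%. Gene length moved with this position: the median genomic span was 8667 bases for the 77 coding members, against 29106 bases for 13010 coding genes with a window. So did window length: the genes' enriched windows had medians of 488.5, 326, 417 and 381.5 exonic bases, and their other windows 150, 120, 121 and 120. The part of either length was not tested. The share near the 5′ end was also above that of all coding genes, at 32.3%, 21.3%, 27.9% and 25% of enriched windows, against 13.6%, 15.3%, 16.5% and 16.6%. Of the enriched windows, 14, 4, 10 and 8 lay near both ends.

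**Figure D2:**
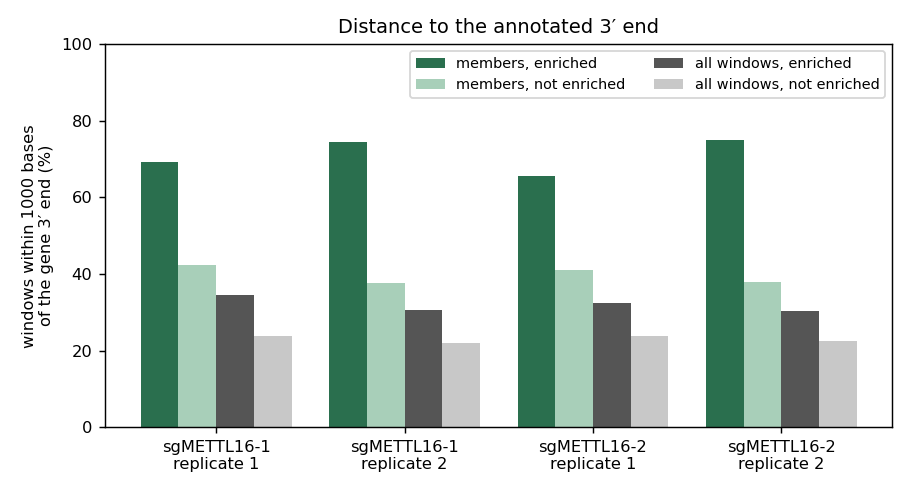
Percent of windows within 1000 genomic bases of the annotated 3′ end in each table, for enriched and other windows, of the mitochondrial ribosomal protein genes and of all coding genes. Enriched windows of these genes stand highest in each table, between 65.6% and 75%.

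The change with METTL16 knockout was small in most enriched windows. For sgMETTL16-1 their median differed in sign between the replicate tables, and for sgMETTL16-2 it lay near 0 in replicate 1. The median log2 fold change of enriched windows was -0.10 and 0.20 for sgMETTL16-1 and -0.01 and 0.10 for sgMETTL16-2 in the authors' deposited tables, against -0.04 and 0.13, and 0.13 and 0.14, for all enriched windows. Below 0 were 44 of the 62 and 13 of the 47 enriched windows for sgMETTL16-1, and 32 of the 61 and 15 of the 48 for sgMETTL16-2, in the authors' deposited tables. In sgMETTL16-1 the majority was thus below 0 in the replicate 1 table and above 0 in the replicate 2 table, as it was over all enriched windows. Genes with MRPL names had medians of -0.10, 0.22, -0.00 and 0.06 in the deposited tables, and those with MRPS names had -0.12, 0.18, -0.01 and 0.11.

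Windows of these genes that were not enriched had medians of -0.09, -0.03, -0.34 and 0.00 in the deposited tables, the lowest in sgMETTL16-2 replicate 1.

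**Figure D3:**
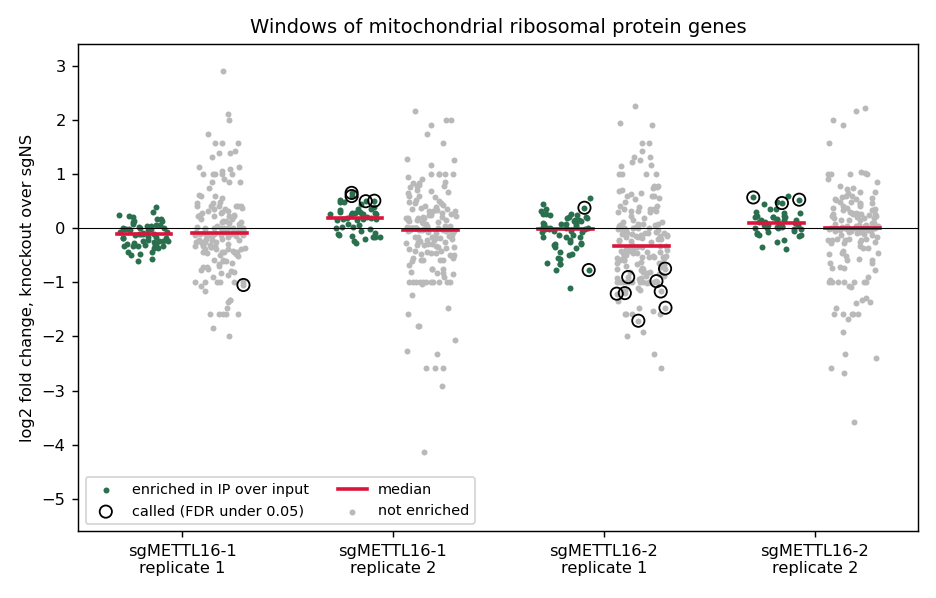
Log2 fold change, knockout over sgNS, of every window of the mitochondrial ribosomal protein genes in each of the 4 deposited tables, 1 point per window, green where enriched and grey where not, with lines for the medians and circles around called windows. Windows that were not enriched spread more widely than enriched ones, and the circled lower calls sit almost all among them, 9 of 10.

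Windows were called lower or higher in knockout when the authors' deposited FDR of the difference was under 0.05. Their positions are given on GRCh38, and whether they lie in coding sequence or untranslated regions was not analysed here, since no exon annotation was used. In sgMETTL16-1 replicate 1, the deposited table called 1 of 227 windows of these genes lower, where the background was 0.281% of all windows, and 0 higher, where it was 0.0743%. In sgMETTL16-1 replicate 2, it called 0 of 211 lower, with a background of 0.167%, and 4 higher, with 0.583%. In sgMETTL16-2 replicate 1, it called 9 of 235 lower, with a background of 0.965%, and 1 higher, with 0.875%. In sgMETTL16-2 replicate 2, it called 0 of 193 lower, with a background of 0.149%, and 3 higher, with 0.586%.

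In either direction these were 0.441%, 1.90%, 4.26% and 1.55% of the genes' windows, against backgrounds of 0.355%, 0.749%, 1.84% and 0.734%. At an unadjusted deposited p under 0.05, the deposited tables held 25 lower and 6 higher windows of these genes in sgMETTL16-1 replicate 1, 3 and 16 in sgMETTL16-1 replicate 2, 32 and 11 in sgMETTL16-2 replicate 1, and 3 and 14 in sgMETTL16-2 replicate 2. As shares these were 11% lower and 2.64% higher, 1.42% and 7.58%, 13.6% and 4.68%, and 1.55% and 7.25%, against 2.93% and 1.93%, 2.01% and 3.8%, 3.97% and 4.24%, and 2.15% and 4% of all windows in the deposited tables. Windows of 1 gene are not replicates of each other. The tables hold no value per library, so no further test across libraries was made, and p-values cover the authors' comparison alone.

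The 18 calls fell on 14 genes, 8 called lower and 6 called higher, none in both directions. The 10 lower and 8 higher calls differed in whether their windows were enriched. All 8 higher calls lay on enriched windows, with log2 fold changes between 0.38 and 0.65 in the authors' deposited tables. Over all windows most higher calls did so too: 394 of 416 in sgMETTL16-1 replicate 2, and 573 of 663 and 390 of 410 in sgMETTL16-2. Of the 10 lower calls, 9 lay on windows that were not enriched, with log2 fold changes between -1.71 and -0.75 in the deposited tables, and the other was in MRPL33. Of all lower calls, 179 of 223 in sgMETTL16-1 replicate 1 and 340 of 731 in sgMETTL16-2 replicate 1 lay on enriched windows. A call on a window that was not enriched is a difference between knockout and sgNS libraries where the authors' test did not detect m6A in that table. Other tables did so for MRPS33 and MRPL13. The MRPS33 window was enriched in sgMETTL16-1 replicate 1 (IP FDR 0.00479), and an overlapping one in sgMETTL16-2 replicate 2 (0.0457). An MRPL13 window that overlapped the called one below the matching threshold was enriched in sgMETTL16-1 replicate 1 (0.00589). Among enriched windows alone, lower calls numbered 0 of 62, 0 of 47, 1 of 61 and 0 of 48, against 2.79%, 0.766%, 4.38% and 0.676% of all enriched windows in the authors' deposited tables. Higher calls numbered 0, 4, 1 and 3 of the same windows, against 0.809%, 4.64%, 7.38% and 4.54% of all enriched windows in the deposited tables.

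No window of these genes was called in both tables of a guide, among 73 windows matched between the tables of sgMETTL16-1 and 91 between those of sgMETTL16-2. Over all windows, 9 lower and 4 higher of 20031 matched (0.0449% and 0.02%) were called in both tables of sgMETTL16-1, and 13 lower and 112 higher of 21192 (0.0613% and 0.529%) in both of sgMETTL16-2. At such shares a count of 0 among so few windows does not set these genes apart. None of the 10 lower calls of these genes was on a window matched to the other table of its guide, while 3 of the 4 higher calls of sgMETTL16-1 and all 4 of sgMETTL16-2 were. Between guides, the replicate 1 tables shared 1 lower window, in MRPL20, among 140 matched, and the replicate 2 tables shared 2 higher windows, in MRPL16 and MRPL2, among 115 matched, against 0.274% and 0.481% of all matched windows. The shared sgNS libraries, if the tables of a number share them, enter both values of such a pair.

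Among proteins of the large subunit, MRPL16, which lies near the peptidyl transferase centre, was called higher in both replicate 2 tables. The window at chr11:59806312-59806637, minus strand, lay 172 bases from the 3′ end of the gene. Its log2 fold change in the authors' deposited tables was -0.04 and 0.59 for sgMETTL16-1 and 0.21 and 0.57 for sgMETTL16-2, with FDRs of 0.655, 0.000316, 0.46 and 0.00135. Its fold enrichment in the deposited tables was 2.09, 1.66, 1.99 and 1.68. The replicate 2 tables thus gave nearly the same size in both guides, while the replicate 1 tables gave no call.

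MRPL2, a core protein of the large subunit that contacts its RNA, followed the same pattern. The window at chr6:43056108-43059485, minus strand, had log2 fold changes of -0.01 and 0.50 for sgMETTL16-1 and 0.01 and 0.53 for sgMETTL16-2 in the authors' deposited tables. The FDRs there were 0.655, 0.00339, 0.659 and 0.00132, and the fold enrichments 1.37, 1.69, 1.35 and 1.5. Both replicate 1 tables had values near 0.

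MRPL37, a protein found in mitochondrial but not bacterial ribosomes, was called higher in sgMETTL16-1 replicate 2. Its window at chr1:54200167-54200523, plus strand, began at the gene's start, the first bases of which are printed above. The log2 fold change in the authors' deposited table was 0.65 with an FDR of 0.0162 and a fold enrichment of 1.86. The closest windows of the other tables had -0.09 in sgMETTL16-1 replicate 1, where the overlap was below the matching threshold, and 0.07 and 0.18 in sgMETTL16-2 in the authors' deposited tables. MRPL4, whose bacterial counterpart lines the polypeptide exit tunnel, was called higher in sgMETTL16-2 replicate 2 at chr19:10254617-10258695, plus strand. Its log2 fold change was 0.20 and 0.40 for sgMETTL16-1 and 0.35 and 0.46 for sgMETTL16-2 in the authors' deposited tables, with FDRs of 0.655, 0.152, 0.16 and 0.0275. All 4 values lay above 0 and 1 passed the threshold.

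Of the MRPS genes, MRPS5, a protein at the entry of the messenger RNA channel in bacteria, was called higher in sgMETTL16-1 replicate 2 at chr2:95104690-95109985, minus strand. Its log2 fold change was -0.07 and 0.51 for sgMETTL16-1 and 0.14 and 0.21 for sgMETTL16-2 in the authors' deposited tables, with an FDR of 0.0017 in the called table. MRPS34, a small-subunit protein without a bacterial counterpart, was called higher in sgMETTL16-2 replicate 1 at chr16:1771895-1772607, minus strand, a window that reached the 3′ end of the gene. Its log2 fold change was 0.13 and 0.01 for sgMETTL16-1 and 0.38 and 0.04 for sgMETTL16-2 in the authors' deposited tables, with an FDR of 0.00955 in the called table.

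None of the 8 higher calls passed under an alternative that changed both the scale and the test. Once the median log2 fold change of all enriched windows was subtracted within a table and a two-sided p was used, 0 of the 8 passed. Their log2 fold changes, from the authors' deposited tables less that median, then lay between 0.25 and 0.52. With a two-sided p alone, 7 of the 8 passed, so that the loss of MRPL4 came with the two-sided p already.

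MRPL20, an RNA-binding protein of the large subunit, was called lower in both replicate 1 tables. The window at chr1:1406938-1407137, minus strand, lay 156 bases from the 5′ end of the gene and covered 89 exonic bases in 2 blocks. Its log2 fold change in the authors' deposited tables was -1.05 for sgMETTL16-1 and -0.98 for sgMETTL16-2, with FDRs of 0.00363 and 0.00407. Neither replicate 2 table listed it. It was not enriched: the fold enrichment was 1.08 and 1.13 in the authors' deposited tables, with FDRs of IP over input of 0.997 and 0.825. The enriched window at the 3′ end of MRPL20 had log2 fold changes of -0.23 and 0.36 for sgMETTL16-1 and -0.17 and 0.44 for sgMETTL16-2 in the authors' deposited tables and was not called.

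MRPL33, a small protein of the large subunit, held the only lower call on an enriched window. At chr2:27774494-27779741, plus strand, a window that reached the 3′ end of the gene, the log2 fold change in the authors' deposited table was -0.77 in sgMETTL16-2 replicate 1, with an FDR of 0.000417 and a fold enrichment of 2.03. The matched window in sgMETTL16-1 replicate 1 had -0.33 in the deposited table. Windows that overlapped it below the matching threshold had -0.34 in sgMETTL16-1 replicate 2 and -1.0 in sgMETTL16-2 replicate 2 in the authors' deposited tables. The value was below 0 in each table and was called in 1.

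The other 7 lower calls were all in sgMETTL16-2 replicate 1, on windows that were not enriched in that table. MRPL30 held 2 of them: chr2:99197289-99197498 had -1.47 with an FDR of 0.00794 and chr2:99194839-99195619 had -1.21 with an FDR of 0.0309 by the authors' deposited table. In sgMETTL16-1 replicate 1 the same windows had -0.78 and -0.83 in the deposited table without a call. MRPS18C, 1 of 3 human relatives of a bacterial small-subunit protein, had the largest drop, -1.71 with an FDR of 0.00282 by the authors' deposited table, at chr4:83461125-83461305. This window shared at least 0.5 of its bases with FAM175A on the opposite strand, the only called window that did so with another gene. The kit marks strand per the labels' protocols, but whether the counting used it is not given in the sources used here.

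MRPS35, a small-subunit protein without a bacterial counterpart, had -1.20 with an FDR of 0.00331 at chr12:27737541-27755471 in the authors' deposited table. Its overlapping windows had -0.12 and -0.61 for sgMETTL16-1 and -1.36 in sgMETTL16-2 replicate 2 in the deposited tables, all below 0 and not called. MRPL13, a core large-subunit protein, had -0.90 with an FDR of 0.00759 at chr8:120414099-120432107 in the deposited table. MRPL19 had -1.17 with an FDR of 0.0427 at chr2:75654866-75655431, and MRPS33 had -0.75 with an FDR of 0.0417 at chr7:141006161-141010641, in the authors' deposited table. For MRPL19, MRPL13 and MRPS33 the tables differed in sign or lay at 0 in a matched or overlapping window: MRPL19 had 0.42 and MRPL13 had 0.21 in sgMETTL16-1 replicate 2, and MRPS33 had 0.00 in sgMETTL16-2 replicate 2, in the authors' deposited tables. With a two-sided p, 7 of the 10 lower calls passed, all but MRPL19, MRPS33 and the window at 99194839 of MRPL30.

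**Figure D4:**
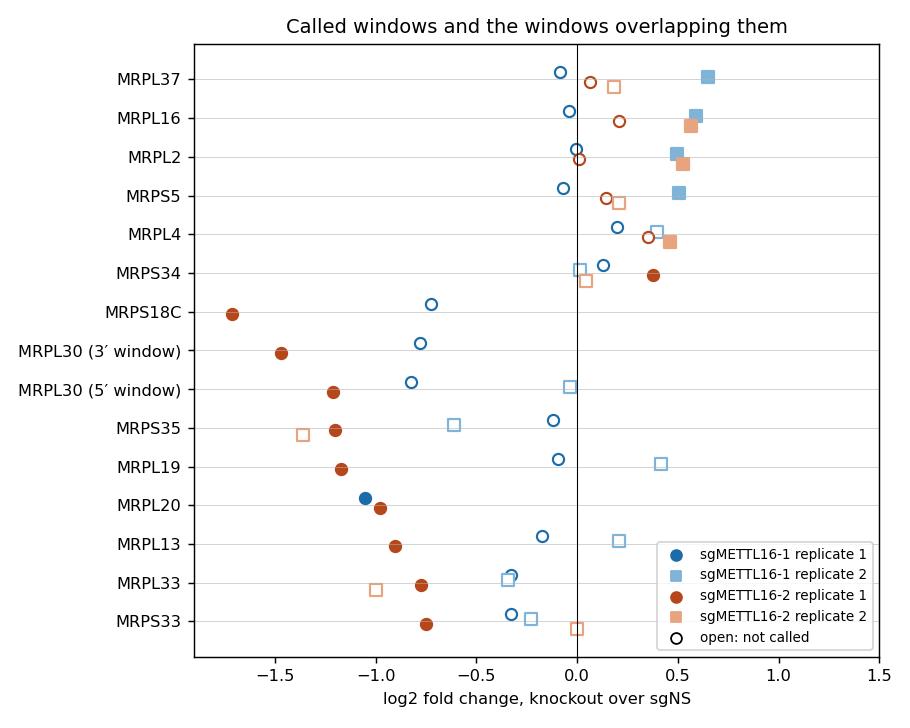
Log2 fold change, knockout over sgNS, of each called window and of the windows that overlap it in the other tables, with called values marked. MRPL16 and MRPL2 are called near 0.5 in both replicate 2 tables and MRPL20 near -1 in both replicate 1 tables, and no window is called in both tables of a guide.

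The windows that could be followed best were the 23 that were matched and enriched in all 4 tables, on 22 genes. Their median log2 fold change was -0.01 and 0.20 for sgMETTL16-1 and 0.14 and 0.15 for sgMETTL16-2 in the authors' deposited tables, and 10, 18, 19 and 18 of the 23 were above 0. Over all enriched windows, matched or not, the medians were -0.04 and 0.13, and 0.13 and 0.14. Above 0 were 2825 of 6426, 5706 of 8489, 4913 of 7762 and 5786 of 8586 of those, and the difference was not tested. By sign, 8 windows were above 0 in all 4 tables, 2 were below 0 in all 4, and 13 had both signs.

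At the top of these 23, the upstream window of MRPL4 averaged 0.35 over the authors' deposited tables and MRPL16 0.33, with the values given above. The other window of MRPL4 among them, at its 3′ end, averaged 0.09, with 0.04, 0.03, 0.25 and 0.06. The window of MRPL27 averaged 0.31, with 0.11, 0.31, 0.56 and 0.28 in the authors' deposited tables. MRPS2, a protein at the head and body junction of the small subunit in bacteria, averaged 0.27, with 0.23, 0.26, 0.24 and 0.35 by the authors' deposited tables. MRPL2 averaged 0.26 in the deposited tables.

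At the other end, the mean was below 0 for 4 windows. MRPL35 averaged -0.16, with -0.61 and -0.12 for sgMETTL16-1 and 0.10 and -0.00 for sgMETTL16-2 in the authors' deposited tables. MRPL46 averaged -0.14, with -0.02, -0.16, -0.01 and -0.38, and was below 0 in all 4 of the authors' deposited tables. MRPS24 averaged -0.07, with -0.10, 0.17, -0.35 and -0.01, and MRPS25 averaged -0.07, with -0.02, -0.05, -0.07 and -0.13, by the authors' deposited tables. The 4 windows were not called.

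**Figure D5:**
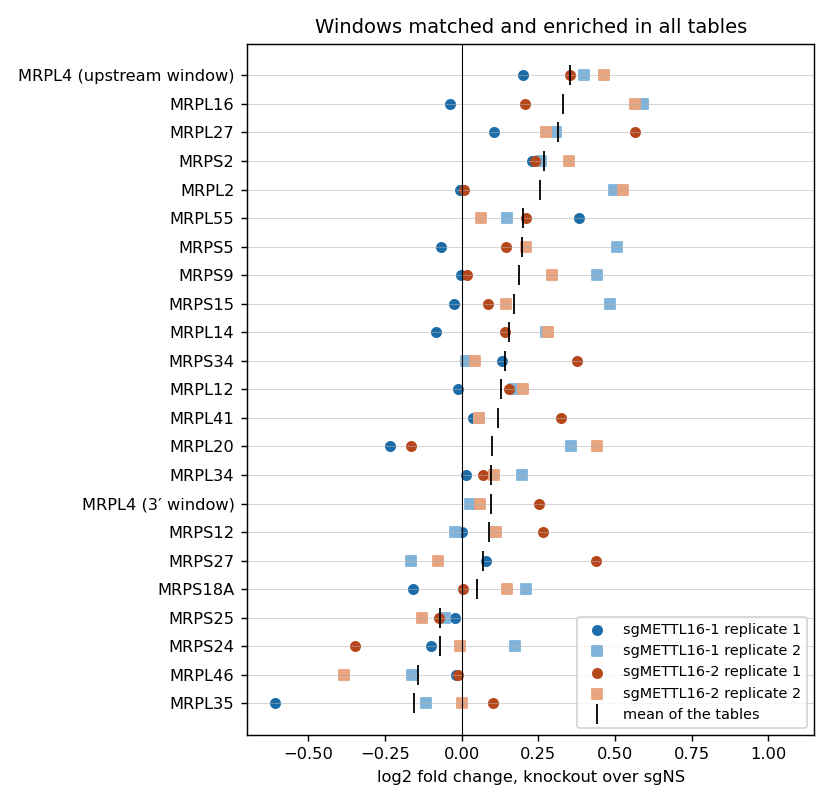
Log2 fold change, knockout over sgNS, of the 23 windows matched and enriched in all 4 tables, ordered by their mean, 1 symbol per table and a bar for the mean. The upstream window of MRPL4 leads with values between 0.20 and 0.46, MRPL35 ends the order, and 13 windows have values on both sides of 0.

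Among members with particular roles, MRPL12, the stalk protein that recruits translation factors, had an enriched window near the 3′ end in each table. Its log2 fold change was -0.01, 0.17, 0.15 and 0.20 in the authors' deposited tables, with fold enrichments of 1.55, 1.75, 1.77 and 2.16. MRPL41, a protein near the tunnel exit that has also been studied in apoptosis, had 0.04, 0.06, 0.33 and 0.05 in the deposited tables, with fold enrichments of 1.84, 2.02, 2.15 and 1.69. Neither was called in any table.

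Other genes of mitochondrial translation gave between 0 and 2 calls per list and table. Their counts can be read against the backgrounds in either direction of 0.355%, 0.749%, 1.84% and 0.734%. Of 7 genes listed as mitochondrial ribosomal proteins with other names, such as DAP3, GADD45GIP1 and AURKAIP1, the authors' deposited tables called 0, 0, 0 and 0 windows lower and 0, 1, 1 and 1 higher, of 27, 20, 26 and 22. LACTB, 1 of the 7, was listed for its older name MRPL56, which does not make it a ribosomal protein, and its windows are in these totals. The shares of 5%, 3.85% and 4.55% in the last 3 tables were above the background and rest on 1 call each. GADD45GIP1, a large-subunit protein, was the higher call in sgMETTL16-1 replicate 2 and in sgMETTL16-2 replicate 1, at 0.41 by either of the authors' deposited tables, with FDRs of 0.00178 and 0.00331. AURKAIP1, a small-subunit protein, was the call in sgMETTL16-2 replicate 2, at 0.48 with an FDR of 2.69e-07 by the authors' deposited table. GADD45GIP1 was thus called across guides and across replicate numbers, but in 1 table of each guide.

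Of 16 translation factors found from 17 symbols, the authors' deposited tables called 0, 2, 2 and 0 windows lower and none higher, of 66, 50, 56 and 46. The shares of 4% and 3.57% in the tables with calls were above the background and rest on 2 calls each. The lower calls were OXA1L, the insertase of the inner membrane, at -0.54 and TUFM, the elongation factor that delivers aminoacyl-tRNA, at -0.64 in sgMETTL16-1 replicate 2, and GFM1, the translocation factor, at -1.10 and MTIF2, an initiation factor, at -1.48 in sgMETTL16-2 replicate 1, in the authors' deposited tables. The windows of OXA1L and TUFM were enriched, and those of GFM1 and MTIF2 were not, with IP FDRs of 0.0501 and 0.998 in the authors' deposited table. Of 31 assembly and RNA modification genes, the deposited tables called 0, 0, 1 and 0 windows lower and 0, 1, 1 and 0 higher, of 136, 134, 136 and 122. FASTKD2, an RNA-binding protein, was lower at -1.62 and DHX30, a helicase, higher at 0.67 in sgMETTL16-2 replicate 1, and MRM3, a methyltransferase of the large ribosomal RNA, was higher at 1.2 in sgMETTL16-1 replicate 2, in the authors' deposited tables. The window of FASTKD2 was not enriched, with an IP FDR of 0.182 by the authors' deposited table, and those of DHX30 and MRM3 were. Of 21 mitochondrial aminoacyl-tRNA synthetase genes found from 25 symbols, 0 of 107, 82, 88 and 90 windows were called in the deposited tables.

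The share of called windows was below that of cytoplasmic ribosomal protein genes in each table. It was above the background as well, but in sgMETTL16-1 replicate 1 this was 0.441% against 0.355% and rested on 1 call. More of these genes' windows were enriched than of all windows, and the part of this in the share was not tested. Cytoplasmic ribosomal protein genes had 31 of 169, 22 of 140, 32 of 177 and 21 of 146 windows called in either direction in the authors' deposited tables (18.3%, 15.7%, 18.1% and 14.4%). Genes of respiratory complex I subunits, named NDUF and nuclear-encoded as well, had 2 of 110, 3 of 101, 3 of 103 and 2 of 100 called in the deposited tables (1.82%, 2.97%, 2.91% and 2%). Mitochondrial ribosomal protein genes, with the shares of 0.441%, 1.90%, 4.26% and 1.55% given above, were below the NDUF genes in 3 tables and above them in sgMETTL16-2 replicate 1. The difference between these groups was not tested.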

How the data were processed

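The libraries were m6A IP and input of NOMO-1 poly(A) RNA, 2 of each per guide. The submitters' processing notes name STAR and GRCh38; a peak caller and a gene annotation were not given in the sources used. The authors deposited, per the file headers, a fold enrichment of IP over input as a ratio, a log2 fold change of the difference, and the log10 of p-values and FDRs, 4 tables in all. Each table's number was taken for a replicate number, and depth per library is unknown. Deposited coordinates start from 0 and are given from 1. Columns of other series numbered 0.

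Windows were enriched or called at a deposited FDR under 0.05. Windows of different tables matched 1 to 1 on strand and name with at least 0.5 of the bases of each shared. In the most strongly enriched windows deposited p-values for the difference were at most 0.514 to 0.537, as a one-sided test gives. Named were all called windows, the 10 strongest by fold enrichment, genes never enriched, up to 5 of the matched enriched windows in each direction, and a few genes of known role. The members, gene lists and rules were chosen with earlier results of these data known. Python 3.11.15, pandas 2.3.3, numpy 2.4.6, scipy 1.17.1 and matplotlib 3.10.9 were used, and the steps were tested on simulated data.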

Additional observations from a re-analysis of the deposited data

How the results depend on the processing

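Counts of called windows depended on the threshold. Where a log2 fold change of 1 or more in size was required, higher calls fell to 0 in sgMETTL16-1 replicate 2, 0 in sgMETTL16-2 replicate 1 and 0 in sgMETTL16-2 replicate 2, and lower calls in sgMETTL16-2 replicate 1 to 5. Where the fold enrichment had to reach 2, the same counts were 0, 0, 0 and 2, and the lower call in sgMETTL16-1 replicate 1 became 0. With enriched windows only, lower calls became 0 in sgMETTL16-1 replicate 1 and 1 in sgMETTL16-2 replicate 1. The shift by the median of enriched windows, which was run with a two-sided p, left 0 higher calls in each of the 3 tables that had them and kept all 10 lower calls. In sgMETTL16-2 replicate 1 it also added to the lower calls, which numbered 10 there against 9 as deposited. The two-sided p alone left 2 of the 3 higher calls of sgMETTL16-2 replicate 2. The shift moves sgMETTL16-2 replicate 1 downward, which by construction favours lower calls. At an IP FDR of 0.01, the share of enriched windows was 19.8% in sgMETTL16-1 replicate 1 and 20.4% in sgMETTL16-2 replicate 1. Leaving out replicates in turn, a guide's calls ranged from 0 to 1 lower and 0 to 4 higher for sgMETTL16-1, and from 0 to 9 lower and 1 to 3 higher for sgMETTL16-2, against 0 when both tables were required. With a call in 1 table and the same direction in the other, sgMETTL16-2 had 4 higher windows and sgMETTL16-1 had 0. For MRPL2 and MRPS34 in sgMETTL16-2, the value in the table without the call was 0.01 and 0.04. No paired analysis was possible because the tables hold the authors' own comparisons with no value per library. A plain Benjamini-Hochberg adjustment of the deposited p, and leaving out the pseudogenes and the antisense RNA, were chosen after seeing the data. The plain adjustment gave 7 lower calls in sgMETTL16-2 replicate 1, against 9 as deposited. Depth is unknown, so its limit on each fold change could not be given.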

Other observations

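MRPS30, a protein of the large subunit despite its name, had 3′ windows with low values that were not called. The lowest in each table was -0.75 and -2.26 for sgMETTL16-1 and -0.94 and -2.39 for sgMETTL16-2 in the authors' deposited tables, and in sgMETTL16-1 replicate 2 its FDR was 0.0724. These are the lowest of up to 2 such windows per table, and another in sgMETTL16-1 replicate 1 had 0.00 in the deposited table. Of these 3′ windows, 1 was enriched, in sgMETTL16-2 replicate 1, with an IP FDR of 0.0166 and a fold enrichment of 2.90 in the deposited table. Its log2 fold change was -0.77, so the lowest values given above all lay on windows that were not enriched.

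The log2 fold change of 138 of 648 windows of these genes that were not enriched (21.3%) equalled, to 3 significant digits, the log2 of a ratio of whole numbers up to 4, against 1 of 218 enriched windows (0.459%), in the authors' deposited tables. Of the 10 lower calls, 9 lay among windows that were not enriched. The 9 had log2 fold changes of -1.05, -0.979, -1.17, -1.21, -1.47, -1.71, -0.748, -0.903 and -1.2, none of them such a ratio. The part of low counts in these calls was not tested.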
